A study of Homo sapiens with 12 samples.

Results

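BCR-ABL1 is the fusion of the genes BCR and ABL1 that drives chronic myeloid leukemia, and K562 is a human leukemia cell line that carries it. The transcripts of both fusion partners and of 8 genes that act directly downstream of the fusion kinase (CRKL, CRK, GRB2, GAB2, SHC1, STAT5A, STAT5B and PIM1) were followed through an Argonaute 2 RNA immunoprecipitation (AGO-RIP). The rows of the 10 genes were taken by name from the tables, not by their values, but the genes were chosen with earlier results of these data known. Of 61782 rows in each table, 10 carried a member name. In 9 of them the member stood alone, whereas SHC1 shared its row with its neighbour PYGO2.

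The cells were K562 cells selected with puromycin after lentiviral infection, either with pLV-miR-143 (miR-143 cells) or with pLV-control (control cells), and each population was a selected pool. According to the study's methods, the line also carried an inducible C/EBPα (K562-C/EBPα-ER), which all groups shared. From each, RNA was pulled down by anti-AGO2 (AGO) or, as the mock, by unspecific immunoglobulin (IgG), which gave the 4 groups control_IgG, control_AGO, miR143_IgG and miR143_AGO of 3 samples each. The authors deposited 1 average per row and group in FPKM, fragments scaled to transcript length and library size, so that every value below is the authors' average, has no error and allowed no test. These are bulk precipitates without an input sample analysed here, so that fewer cells with a transcript, less of it per cell and less of it held by AGO2 cannot be told apart.

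In the fusion protein, a part of BCR forces the ABL1 tyrosine kinase to be active at all times. GRB2, SHC1 and GAB2 then link the kinase to the RAS and PI3 kinase pathways, CRKL and CRK are adaptors that it phosphorylates, and STAT5A and STAT5B are transcription factors that it activates and that switch on genes such as PIM1, a survival kinase. AGO2 is the protein that carries microRNAs to matching sites, mostly in the 3′ untranslated region (3′ UTR) of messenger RNAs.

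The row of the vector-encoded MIR143 gene, which checks the labels, was listed at 0 in control cells and reached 44781 FPKM (IgG) and 118393 FPKM (AGO) in miR-143 cells. Rows of 1 protein-coding gene made up a smaller share of the summed FPKM in IgG than in AGO precipitates. The share was 7.90% and 8.38% in control_IgG and miR143_IgG, against 42.0% and 37.2% in control_AGO and miR143_AGO. The sum over all rows was larger in IgG, at 2831020 and 2595870 FPKM against 368552 and 411417 FPKM. The sum of coding rows was larger too, at 1.21 and 1.18 times the geometric mean of the 4 groups against 0.841 and 0.831 times. The share thus does not show less messenger RNA in IgG. Fragment counts are unknown. The lowest products of FPKM and transcript length were 12.9 times those of miR143_AGO in control_IgG (1.09 times in control_AGO and 1.64 times in miR143_IgG). By this indirect measure, a value in control_IgG would rest on the fewest fragments. Of 12 erythroid markers of K562, the 8 alone on their row had their median at 28.6 FPKM (IgG) and 51.7 FPKM (AGO) in control cells and 39.2 FPKM (IgG) and 42.0 FPKM (AGO) in miR-143 cells. Of the 5 lymphoid markers, 5, 5, 3 and 4 were listed at 0 in the same order. The 6 rows of granulocyte and monocyte markers held 4, 5, 5 and 4 at 0 and reached at most 6.27 FPKM.

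The transcripts of the pathway spanned from near the detection limit to among the most abundant messenger RNAs. In the AGO precipitates of control cells, the order was PIM1, STAT5A, CRKL, BCR, ABL1, STAT5B, GRB2, CRK and GAB2. The order in miR143_AGO was the same except that CRK stood above GRB2. The median of the 9 rows was 23.9 FPKM (IgG) and 27.2 FPKM (AGO) in control cells and 26.4 FPKM (IgG) and 21.0 FPKM (AGO) in miR-143 cells. The median of coding rows at 1 FPKM or more lay between 6.01 and 9.95 FPKM in the 4 groups, so that the members' median was higher in each. The members were not filtered in this way, and levels in precipitates do not give expression in the cells. Neighbours in these orders could not be tested against a spread.

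**Figure D1:**
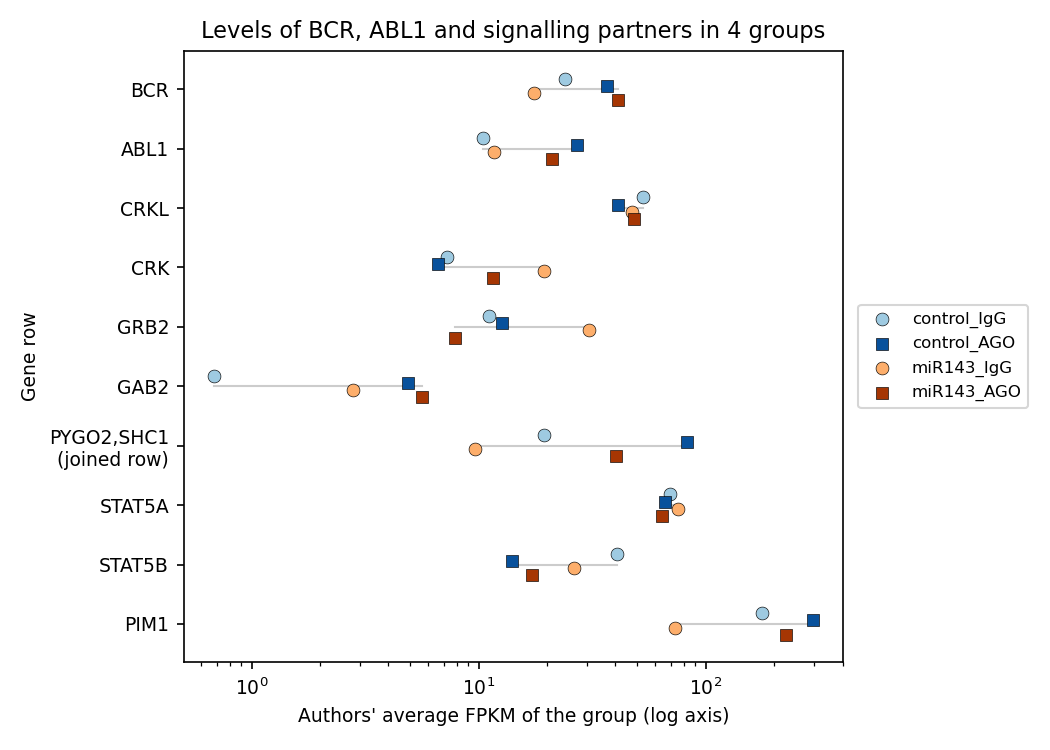
Authors' average FPKM (x axis, logarithmic) of each member row in the 4 groups, circles for IgG and squares for AGO precipitates, blue for control and orange for miR-143 cells; grey lines join the lowest and highest group. PIM1 lies rightmost in 3 of 4 groups, GAB2 leftmost in all, and CRKL and STAT5A show the narrowest spread.

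BCR encodes a large scaffold with a serine/threonine kinase and GTPase-regulating domains, and its row covers reads of unfused BCR and of the fusion. It is located at 22:23179704-23318037 on the plus strand (GRCh38, GENCODE release 29). BCR was at 23.9 FPKM (IgG) and 36.8 FPKM (AGO) in control cells and 17.5 FPKM (IgG) and 41.1 FPKM (AGO) in miR-143 cells. Both AGO values were above both IgG values. ABL1 encodes the tyrosine kinase and lies at 9:130713946-130887675 on the plus strand. ABL1 was at 10.4 FPKM (IgG) and 27.2 FPKM (AGO) in control cells and 11.7 FPKM (IgG) and 21.0 FPKM (AGO) in miR-143 cells, again with both AGO values above both IgG values. BCR stood above ABL1 in every group.

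How much the rows tell about the fusion was read from the reference transcripts. K562 cells join exon 14 of BCR to exon 2 of ABL1, so that the fusion holds 3533 of the 7082 bases of the reference BCR transcript (49.9%) and 5306 of the 5766 bases of that of ABL1 (92.0%). It ends in the ABL1 3′ UTR, and 0% of the BCR 3′ UTR remains in it. A seed site in the BCR 3′ UTR can therefore be present in unfused BCR messenger RNA, whereas a site in the ABL1 3′ UTR is present in both fused and unfused ABL1. The deposited averages per row do not separate the transcripts. BCR also shares sequence with its pseudogenes, as 10.0% of the 50-base words of its transcripts occur in BCRP1 to BCRP9. Of the 9 BCRP rows, 6 were listed at 0 in all groups, and the highest value was 2.30 FPKM.

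**Figure D2:**
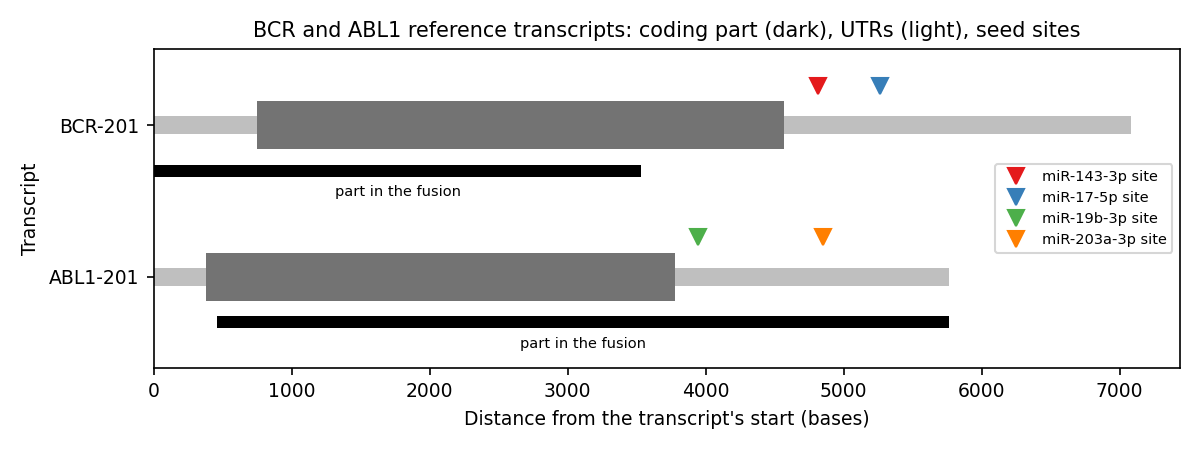
Reference transcripts of BCR and ABL1 drawn to scale along the distance from their start (x axis, bases), with the coding part in dark grey, the UTRs in light grey, the part held by the fusion as a black bar, and seed sites for 4 of the microRNAs searched as triangles. Both BCR sites lie outside the fusion and both ABL1 sites inside it.

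Sites for miR-143-3p and for 4 other microRNAs (miR-17-5p, miR-19b-3p and miR-92a-3p of one oncogenic cluster, and miR-203a-3p, which has been described to target ABL1) were looked for in every coding gene, in its longest 3′ UTR. The motifs were TCATCTC or CATCTCA for miR-143-3p, GCACTTT or CACTTTA for miR-17-5p, TTTGCAC or TTGCACA for miR-19b-3p, GTGCAAT or TGCAATA for miR-92a-3p, and CATTTCA or ATTTCAA for miR-203a-3p, on the transcribed strand only, and a site that holds both motifs of a pair was counted once, as an 8mer. The mature sequences from RefSeq (GRCh38.p14) are shown with the seed, bases 2 to 8, in capitals, since the seed is what the search matched:
miR-143-3p: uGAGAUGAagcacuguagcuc
miR-17-5p: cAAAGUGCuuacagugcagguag
miR-19b-3p: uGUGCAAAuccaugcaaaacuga
miR-203a-3p: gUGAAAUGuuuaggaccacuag

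A miR-143-3p site was found in 2 of 10 members, against 22.2% of 19120 genes with a 3′ UTR. The members' 3′ UTRs, of 1274 to 3975 bases, were all longer than the median of 1105 bases over these genes. The shares given here and below are thus not matched for length. The sites in BCR (22:23315772-23315778) and STAT5A (17:42311179-42311185) are shown with the seed match in capitals and flanking 3′ UTR in lower case, because they are where the overexpressed microRNA could pair with the pathway:
BCR, miR-143-3p: gccccaagccagtTCATCTCggagtccag
STAT5A, miR-143-3p: tgatgtaaccgatTCATCTCtcagaaggg

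Neither match is followed by an A, so that both are 7mer-m8 sites. A miR-17-5p site was found in 3 members (27.4% of all genes), a miR-19b-3p site in 2 (19.2%), a miR-92a-3p site in 1 (18.1%) and a miR-203a-3p site in 4 (29.1%). The following sites are shown because they include each 8mer among the members and the sites of the fusion's own 3′ UTR:
BCR, miR-17-5p, 22:23316222-23316229: aaccccaggctacGCACTTTAgggttcgtt
CRK, miR-17-5p, 17:1422813-1422820: caggatgtaccgaGCACTTTAttcagtgca
ABL1, miR-19b-3p, 9:130885854-130885860: tctactacctacgTTTGCACcgcctgccc
ABL1, miR-203a-3p, 9:130886757-130886764: tgagttcttgaagCATTTCAAagccctgcc

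An 8mer for miR-17-5p, as in BCR and CRK, is found in 4.42% of all genes with a 3′ UTR, and one for miR-203a-3p, as in ABL1, in 6.66%. CRK and GRB2 hold a further miR-17-5p match each, and 26 consecutive bases of the 29-base windows around these 2 matches were identical, a sequence known from Alu repeats. GAB2 and PIM1 hold no site for any of the 5 microRNAs in their longest 3′ UTRs of 3975 and 1335 bases. A match is a description of the sequence and does not show that a microRNA was bound there.

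Among the adaptors, CRKL, which binds BCR-ABL1 directly and is its most prominent phosphorylated substrate in leukemic cells, varied least. It was at 52.7 FPKM (IgG) and 41.05 FPKM (AGO) in control cells and 47.4 FPKM (IgG) and 48.1 FPKM (AGO) in miR-143 cells, a range of 1.28 times between the lowest and the highest group. CRK, the founding member of the same SH2/SH3 adaptor family, was at 7.22 FPKM (IgG) and 6.64 FPKM (AGO) in control cells and 19.3 FPKM (IgG) and 11.5 FPKM (AGO) in miR-143 cells. Its values in miR-143 cells were thus above those in control cells in either precipitate. No 50-base word of CRK occurs in CRKL (0%), so that their reads can be told apart.

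GRB2, the adaptor that recruits the RAS exchange factor SOS to the fusion, was at 11.04 FPKM (IgG) and 12.7 FPKM (AGO) in control cells and 30.5 FPKM (IgG) and 7.83 FPKM (AGO) in miR-143 cells. The mock precipitate of miR-143 cells stood apart as the highest group, and the AGO precipitate of the same cells was the lowest. GAB2, a docking protein that binds GRB2 and brings in PI3 kinase, was at 0.680 FPKM (IgG) and 4.89 FPKM (AGO) in control cells and 2.80 FPKM (IgG) and 5.63 FPKM (AGO) in miR-143 cells. Its value in control_IgG was only 5.87 times the low edge of that group, against 190 times or more in the others, and by that measure would rest on few fragments.

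SHC1, an adaptor that passes signals from phosphorylated tyrosines to GRB2, overlaps PYGO2 on the same strand of chromosome 1. The joined row was at 19.4 FPKM (IgG) and 82.6 FPKM (AGO) in control cells and 9.60 FPKM (IgG) and 40.2 FPKM (AGO) in miR-143 cells. It was high in AGO and lower in miR-143 cells in either precipitate, but the values cannot be assigned to SHC1 and the row was left out of the counts below.

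The transcription factors STAT5A and STAT5B lie next to each other on chromosome 17 and encode close relatives. STAT5A was at 69.5 FPKM (IgG) and 65.8 FPKM (AGO) in control cells and 75.5 FPKM (IgG) and 64.2 FPKM (AGO) in miR-143 cells, a range of 1.18 times, the narrowest of all members. STAT5B was lower and more variable, at 40.7 FPKM (IgG) and 14.03 FPKM (AGO) in control cells and 26.4 FPKM (IgG) and 17.1 FPKM (AGO) in miR-143 cells. Both IgG values of STAT5B were above both AGO values, the opposite of BCR and ABL1. Of the 50-base words of STAT5A transcripts, 8.61% occur in STAT5B, and 7.81% of those of STAT5B occur in STAT5A, so that a part of the reads could have been shared between these rows.

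PIM1, a serine/threonine kinase gene activated by STAT5, was the most abundant member in every group except miR143_IgG, in which STAT5A was slightly higher. It was at 176 FPKM (IgG) and 298 FPKM (AGO) in control cells and 73.3 FPKM (IgG) and 226 FPKM (AGO) in miR-143 cells. Both AGO values were above both IgG values. Only 0.948% of the coding rows at 1 FPKM or more in control_AGO and 1.27% of those in miR143_AGO were as high or higher.

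To ask which of these messenger RNAs were recovered with AGO2 above background, AGO was set against IgG within each cell population, as log2 of (FPKM + 1) over (FPKM + 1) for rows at 1 FPKM or more in either group. This ratio understates the change of low rows. In control cells, GAB2 (log2 ratio 1.81) and ABL1 (1.31) were at least 2-fold higher in AGO, and STAT5B (−1.47) was at least 2-fold lower. Thus 2 of 9 members were higher, where 34.5% of all 9919 rows passed the same fold, and 1 of 9 was lower, where 36.2% did. The median of the members was 0.18, and that of all rows −0.19. By plain ratios, ABL1 was 2.61 times and GAB2 7.20 times as high in control_AGO as in control_IgG, and STAT5B 2.90 times as high in control_IgG. GAB2 was compared here only through control_AGO, since it was under 1 FPKM in control_IgG. A minimum mean of 5 FPKM removed it. This left 1 of 8 members higher, against 24.1% of rows, and 1 lower, against 44.3%.

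In miR-143 cells, PIM1 (1.61) and BCR (1.18) were at least 2-fold higher in AGO and GRB2 (−1.84) at least 2-fold lower. Here too, 2 of 9 members were higher (26.6% of 10643 rows) and 1 was lower (33.5%). The median was 0.02 for the members and −0.22 for all rows. By plain ratios, PIM1 was 3.09 times and BCR 2.34 times as high in miR143_AGO as in miR143_IgG, and GRB2 3.90 times as high in miR143_IgG. At 10-fold in either direction, 0 of 9 members differed in control cells (9.36% of rows) or in miR-143 cells (5.27%). The study used 10-fold for another measure, a gain of AGO2 binding in miR-143 over control cells.

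The direction was shared between the cell populations, which have no library in common, for 7 of 9 members. BCR, ABL1, GAB2 and PIM1 were higher in AGO in both populations, 4 of 9 members against 30.8% of 8648 rows compared in both. In control cells, GAB2 entered this count only through control_AGO. CRK, STAT5A and STAT5B were lower in both, 3 of 9 against 34.6% of rows, although CRK and STAT5A were above 0 in control cells once the groups were scaled to the same median, upper quartile or coding sum, as was STAT5A in miR-143 cells with the last 2 of these scalings. The 4 members above 0 and STAT5B kept their direction in both populations in every one of the 9 alternatives that compared them. CRKL (−0.35 and 0.02) and GRB2 (0.18 and −1.84) changed sides, with CRKL above 0 in both under scaling to the upper quartile or coding sum. At 2-fold or more in both populations, 0 of 9 members were higher (15% of rows) and 0 lower (16.4%). This depended on scaling: with the upper quartile or coding sum, BCR, ABL1, GAB2 and PIM1 passed 2-fold upwards in both. The share of all rows past 2-fold in both was not computed under these scalings.

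**Figure D3:**
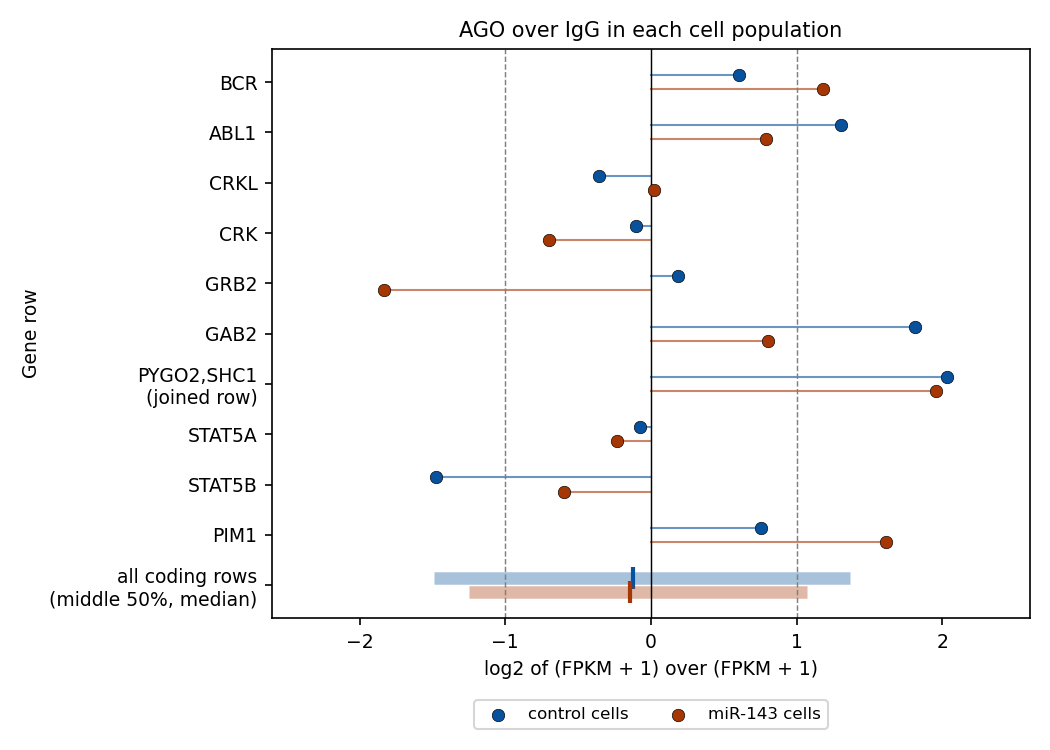
Log2 ratio of AGO over IgG (x axis, pseudocount of 1) of each member in control cells (blue) and miR-143 cells (orange), with dashed lines at 2-fold; the bottom bars give the middle 50% of all coding rows and ticks their median. BCR, ABL1, GAB2, the joined SHC1 row and PIM1 lie to the right in both populations and STAT5B to the left, and all members except GAB2, GRB2, PIM1, BCR and the joined row lie within the bars in both.

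These counts depended on how the groups were scaled. With groups scaled to the same upper quartile, the median of all rows moved to 0.38 for control and 0.19 for miR-143 cells. Then 4 members were at least 2-fold higher and 0 lower in control cells, where 41.4% of rows were higher and 28.3% lower, and 4 were higher and 1 lower in miR-143 cells, where 33.4% of rows were higher and 26.7% lower.

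Sites for the microRNAs of the oncogenic cluster did not go with one direction. Of the members with a site for miR-17-5p, miR-19b-3p or miR-92a-3p, BCR and ABL1 were higher in AGO in both populations, CRK and STAT5B were lower in both (CRK with the exception given above), and CRKL and GRB2 were mixed. The BCR row pools unfused BCR with the fusion, which lacks the BCR 3′ UTR that holds its site. Of the members without such a site, GAB2 and PIM1 were higher in both, and STAT5A was lower in both with the exception given above. The joined row of SHC1 and PYGO2 was higher in both, but cannot be assigned to SHC1 and was not sorted by site.

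To ask whether miR-143 changed the amount of these messenger RNAs with AGO2, miR143_AGO was set against control_AGO. The members differed little. The log2 ratios lay between −0.63 for GRB2 and 0.71 for CRK, and 0 of 9 members were at least 2-fold higher or lower, against 17.7% of 9798 rows higher and 14.1% lower. At 10-fold the share was 1.03% of rows and 0 of 9 members. PIM1 (−0.39) and ABL1 (−0.36) were lower and STAT5B (0.27) higher in miR143_AGO, as in all alternatives. CRKL (0.22), GAB2 (0.17) and BCR (0.16) were slightly higher, but fell below 0 with scaling to the same median, where the median of all rows was −0.07. The median of the members was 0.16, beside 0.17 for all rows. The joined row of SHC1 and PYGO2 was the furthest from 0, at −1.02, 2.05 times as high in control_AGO by the plain ratio.

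Of the 2 members with a miR-143-3p site shown above, BCR had a log2 ratio of 0.16 and STAT5A of −0.04, and 50.7% and 58.9% of all rows were as high or higher. Both lay within the range of the 7 members without such a site. The BCR row pools unfused BCR with the fusion, which lacks the BCR 3′ UTR. Its ratio is therefore not that of transcripts with the site alone.

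The same comparison in the mock precipitates gave larger differences. GRB2 (1.39), CRK (1.30) and GAB2 (1.18) were higher by 2-fold or more in miR143_IgG, and PIM1 (−1.26) was at least 2-fold lower. These are 3 of 9 members higher, against 36.2% of 10172 rows, and 1 lower, against 26.8%, and at 10-fold 0 of 9 members against 8.87%. The median was 0.12 for the members and 0.17 for all rows. By plain ratios, GRB2 was 2.76 times, CRK 2.67 times and GAB2 4.13 times as high in miR143_IgG, and PIM1 2.41 times as high in control_IgG. GAB2 was compared here only through miR143_IgG, since it was under 1 FPKM in control_IgG. Its ratio was 0.98 with scaling to the same median, which left 2 members higher, and a minimum mean of 5 FPKM removed it.

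**Figure D4:**
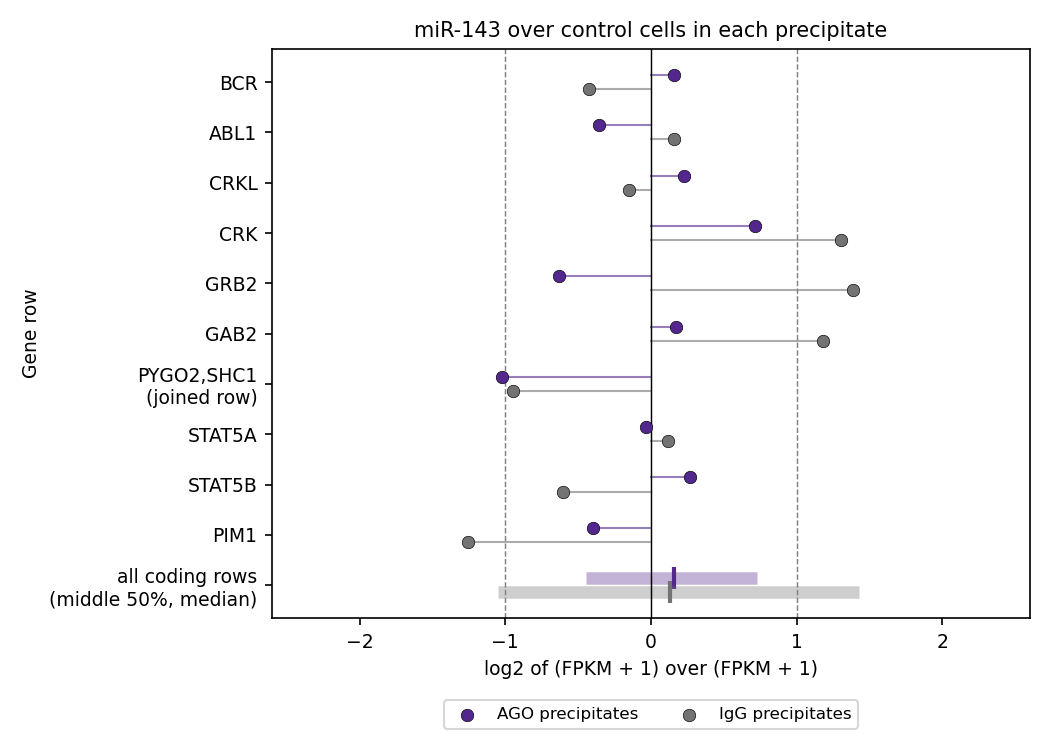
Log2 ratio of miR-143 over control cells (x axis, pseudocount of 1) of each member in the AGO (purple) and IgG (grey) precipitates, with dashed lines at 2-fold and the middle 50% and median of all coding rows at the bottom. All AGO points except the joined SHC1 row lie between the dashed lines, whereas CRK, GRB2, GAB2 and PIM1 pass them in IgG.

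The IgG-corrected ratio, in which the log2 AGO over IgG ratio of control cells is subtracted from that of miR-143 cells, uses all 4 groups and was compared for 11914 rows. GRB2 (−2.02) and GAB2 (−1.01) were at least 2-fold lower. That is 2 of 9 members against 33.5% of rows, while 0 of 9 were at least 2-fold higher against 29% and 0 of 9 passed 10-fold against 10.3%. Without the pseudocount, the corrected ratio of GRB2 was 4.47 times and that of GAB2 3.59 times lower in miR-143 cells. For GRB2 the value of 30.5 FPKM in miR143_IgG, and for GAB2 that of 0.680 FPKM in control_IgG, enters the ratio, and whether these mock values recur in single replicates was not tested. STAT5B (0.88), PIM1 (0.86), BCR (0.58) and CRKL (0.37) were above 0 in all alternatives, and CRK (−0.59), ABL1 (−0.51) and STAT5A (−0.15) below 0. The median was −0.15 for the members and −0.09 for all rows, but 0.11 and 0.03 with a mean of at least 5 FPKM, under which GAB2 was not compared.

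Further genes of the pathway were read from lists of 44 genes (21 adaptors and phosphatases, 13 kinases, and 10 outputs and relatives of STAT5), of which 40 stood alone on their row. In the group of STAT5 outputs and relatives, 6 of 10 rows passed 2-fold upwards in AGO and 1 downwards in control cells, with a median log2 ratio of 1.19. In miR-143 cells, 4 were higher and 1 lower, with a median of 0.57. The shares of all rows are those given above, and the medians of all rows were −0.19 and −0.22. The 8 erythroid marker rows moved alike, with 4 higher and 0 lower in control cells (median 1.19) and 3 higher and 1 lower in miR-143 cells (median 0.62), and whether this bears on the STAT5 outputs was not tested. Summed over the STAT5 list, the levels were 144 FPKM (IgG) and 530 FPKM (AGO) in control cells and 146 FPKM (IgG) and 469 FPKM (AGO) in miR-143 cells. The list's highest rows in both AGO groups were SOCS1 and SOCS3. They were at 172 and 132 FPKM in control_AGO against 14.2 and 6.40 FPKM in control_IgG. The log2 ratio was above 0 for 8 of 10 rows in control cells and 6 of 10 in miR-143 cells.

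Past 10-fold were SOCS1 in both populations and SOCS3 in control cells, feedback inhibitors of JAK-STAT signalling that STAT factors induce. SOCS1 was at 14.2 FPKM (IgG) and 172 FPKM (AGO) in control cells and 2.86 FPKM (IgG) and 130 FPKM (AGO) in miR-143 cells, which gave log2 ratios of AGO over IgG of 3.51 and 5.09 in control and miR-143 cells. SOCS3 was at 6.40 FPKM (IgG) and 132 FPKM (AGO) in control cells and 10.8 FPKM (IgG) and 112 FPKM (AGO) in miR-143 cells, with log2 ratios of 4.17 and 3.26. Of genes chosen after their values were seen, the STAT5 target CISH (1.93 and 2.74) and STAT3 (3.29 and 2.08) were also at least 2-fold higher in AGO in both populations, whereas SOCS2 (−1.78 and −1.87) was at least 2-fold lower in both. By plain ratios of AGO over IgG, SOCS3 in miR-143 cells (10.4 times) and STAT3 in control cells (11.6 times) passed 10-fold too.

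**Figure D5:**
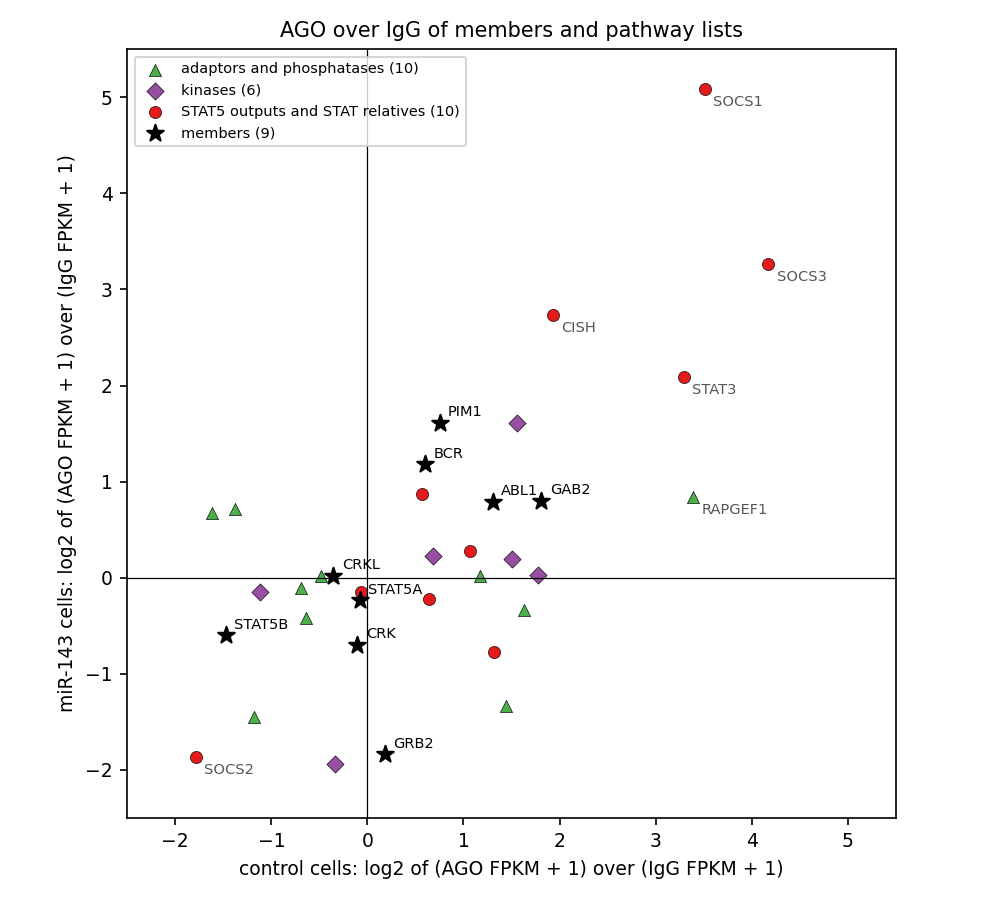
Log2 AGO over IgG ratio, control cells on the x axis against miR-143 cells on the y axis, pseudocount of 1, for the 9 members (stars) and the rows of the 3 pathway lists compared in both populations (triangles, adaptors and phosphatases; diamonds, kinases; circles, STAT5 outputs and relatives). SOCS1, SOCS3, STAT3 and CISH lie at the upper right, SOCS2 at the lower left, and the members nearer the centre.

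Among the adaptors and phosphatases, 5 of 11 rows passed 2-fold upwards in AGO and 3 downwards in control cells (median −0.48), and 1 of 13 was higher and 2 lower in miR-143 cells (median 0.01). RAPGEF1, an exchange factor bound by CRK and CRKL, was past 10-fold in control cells, from 1.89 FPKM in control_IgG to 29.4 FPKM in control_AGO, with 4.34 FPKM (IgG) and 8.53 FPKM (AGO) in miR-143 cells. The joined rows of NCK1 with IL20RB (34.5 FPKM in control_IgG and 0.711 FPKM in control_AGO) and of BCAR1 with a further name (26.3 FPKM in control_IgG and 2.18 FPKM in control_AGO) cannot be assigned to 1 gene. Among the kinases, 3 of 6 rows were higher and 1 lower in control cells (median 1.09), and 1 of 7 was higher and 2 lower in miR-143 cells (median 0.03). Of all rows compared, 34.5% were higher and 36.2% lower in control cells (median −0.19). In miR-143 cells, 26.6% of all rows were higher and 33.5% lower (median −0.22).

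Between miR143_AGO and control_AGO, 3 of 13 adaptor and phosphatase rows were at least 2-fold higher and 4 lower (median −0.21), beside 17.7% and 14.1% of all rows and their median of 0.17. The higher rows were all under 1 FPKM in control_AGO and were compared only through miR143_AGO. The highest log2 ratio was 2.21 for GAB1, a relative of GAB2, at 0.675 FPKM in control_AGO and 6.78 FPKM in miR143_AGO. The lowest row was that of PTPN6, a phosphatase at 2.94 FPKM in control_AGO and listed at 0 in the other groups. Against the same shares, 0 of 6 kinase rows were higher and 0 lower (median 0.44), with log2 ratios from −0.89 for AKT2, a survival kinase downstream of PI3 kinase, to 0.92 for PIK3CD, a PI3 kinase subunit.

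The rows of other coding genes whose 4 values lay closest to those of the fusion partners were ZNF692, ECHS1 and KIAA1191 for BCR, at Euclidean distances of 0.32, 0.41 and 0.42 in log2(FPKM + 1) over the 4 groups. For ABL1 they were ASCC2, IFNGR2 and CMTM6, at 0.39, 0.44 and 0.47. With 4 values per row, this likeness describes level as much as pattern.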

How the data were processed

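RNA precipitated from K562 cells was sequenced in 12 samples of 4 groups, taken from the sample titles. Per the labels, ribosomal RNA was removed and cDNA made from random primers, while the study's methods name a TruSeq kit. The authors deposited average FPKM values of each group, made with TopHat and Cufflinks on hg38. Versions and annotation are not given in the sources used here. Depth is unknown and no interval or test could be made, so that differences are ratios of averages. The design had foreseen limma for replicates, which was not used.

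Log2 ratios used a pseudocount of 1 and rows at 1 FPKM or more in at least 1 group compared. A difference was called at 2-fold or more, and at 10-fold, in either direction. The study used 10-fold only for a gain of AGO2 binding in miR-143 over control cells. The low edge of a group was the lowest products above 0 of FPKM and transcript length (the 10th lowest) over 15805 genes with 1 transcript in GENCODE 29. Coordinates and 3′ UTRs came from GENCODE 29 (GRCh38) by symbol, which may not be the authors' annotation, and strand of the library was not stated. Overlapping antisense genes can therefore add reads to CRK, GRB2, GAB2 and STAT5B. Ratios were tested on simulated data with Python 3.11.15, numpy 2.4.6 and pandas 2.3.3. Members and lists were chosen with earlier results of these data known. Named genes were the 10 members, list genes past 10-fold (otherwise the highest and lowest of a list between the AGO groups) and the 3 nearest rows of BCR and ABL1. CISH, STAT3 and SOCS2 lie outside this rule and were chosen after their values were seen, and NCK1 and BCAR1 passed 10-fold on joined rows. The range of the STAT5 outputs between the AGO groups is not reported here.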

Additional observations from a re-analysis of the deposited data

How the results depend on the processing

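No paired analysis was possible because each group is given as a single averaged column, in which replicates cannot be told apart, and for the same reason no replicate could be left out. The 9 other alternatives were pseudocounts of 0.1 and 0.01, scaling to the same median, upper quartile or sum of coding rows, a mean of at least 5 FPKM, no filter, counting the joined row, and summing rows of the same name. Of 90 recomputed counts and medians, 85 moved by no more than 1.5 times (for medians, as a fold). The members called in miR-143 cells rose from 3 to 5 with scaling to the upper quartile and to 5 with the coding sum. Those in the IgG-corrected ratio fell from 2 to 1 with the coding sum, in which GAB2 was at −0.92, and to 1 with a mean of at least 5 FPKM, which removed GAB2. Those in the AGO pair rose from 0 to 1 with the joined row of SHC1 and PYGO2. The members' median changed sign in the AGO pair (−0.11) and the IgG pair (−0.18) with scaling to the same median, in the IgG pair (−0.02), miR-143 cells (−0.11) and the IgG-corrected ratio (0.11) with a mean of at least 5 FPKM, and in the IgG pair (−0.02) with the joined row. Of 401 recomputed ratios of single members, 395 moved by less than 1.5 times and 0 of those past 2-fold changed sign. The other 6 were GAB2 with smaller pseudocounts, whose AGO over IgG log2 ratio reached 2.83 in control cells.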
